A study of Mus musculus with 12 samples.

Results

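Sirt1 knockout mouse embryonic stem cells (ESC) in which Otx2 was also knocked down, Sirt1KO Otx2KD, were compared with wild-type ESC, 3 libraries of each, to describe what stays different once Otx2 is back near its wild-type level. These 6 libraries, taken by their titles, are part of a set of 12. The members are the 11665 of 23136 named loci that reached 1 FPKM, a fragment count scaled by transcript length and library size, in at least 3 of the 6 libraries. Besides the groups compared, the study held 3 libraries of Sirt1 knockout ESC without the knockdown, Sirt1KO, and 3 of wild-type epiblast-like cells made from ESC over 48 hours with Fgf2 and Activin A. All cells were C57 Bl/6J. All 3 ESC groups grew on gelatin, without serum, in N2B27 medium with LIF, 1 uM of the MEK inhibitor PD0325901 and 3 uM of the GSK3 inhibitor CHIR99021. The method of the Otx2 knockdown, the deleted part of Sirt1, the number of clones, and whether replicates were separate cultures are not in the labels. Line and genotype therefore cannot be told apart here, and the p-values measure the spread between these libraries, which may be technical.

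Sirt1 is an NAD-dependent deacetylase that removes acetyl groups from histones and from regulators such as p53. Otx2 is a homeodomain transcription factor that helps pluripotent cells leave the naive state, in which ESC resemble the epiblast before implantation, for the formative and primed states that follow. The MEK inhibitor holds down ERK signalling and the GSK3 inhibitor stabilises beta-catenin, the effector of Wnt signalling, so both pathways are set by the medium in every ESC group.

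Each library was deposited as FPKM only, so counts are unknown. Depth relative to wild-type replicate 1, estimated from the smallest FPKM values, ran from 0.986 to 1.02 over the wild-type libraries and was 1.31, 0.767 and 1.08 over those of Sirt1KO Otx2KD, and 15818 to 16408 named loci were above 0. Levels were compared as log2(FPKM + 1) in limma over all 12 libraries, with Benjamini-Hochberg adjustment over the 11665 loci and a threshold of 0.05 on the adjusted p. Differences below are Sirt1KO Otx2KD minus wild-type ESC on this log2 scale, which understates changes of genes with low FPKM. "Rose" and "fell" are used of genes that passed the threshold. Values against Sirt1KO are given beside them, and these comparisons share libraries.

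Both targeted genes were looked at first. Sirt1, at chr10:62781752-62801783 in the deposited mm9 loci, measured 25.8, 25.4 and 26.2 FPKM in wild-type ESC, 15.3, 15.3 and 15.7 in Sirt1KO, and with the knockdown 16, 15.6 and 15. It fell by 0.70 ± 0.043 log2 units (SE, n = 3 libraries a group, limma adjusted p = 1.40e-08), and both knockout groups lay below every wild-type library while overlapping each other. The remaining signal is over the whole locus, so it says nothing of the deleted part. Otx2, at chr14:49277858-49282547, measured 7.6, 6.85 and 7.68 FPKM in wild-type ESC, 34.2, 24.6 and 22.2 in Sirt1KO, then 6.33, 6.27 and 5.61 in Sirt1KO Otx2KD. The knockdown libraries were -1.96 log2 units from Sirt1KO (limma adjusted p = 3.16e-08) and all 3 were just below the lowest wild-type library. The difference from wild type was -0.25 ± 0.12 (SE, 95% interval -0.50 to 0.014), which missed the threshold in the fit of 12 libraries (limma adjusted p = 0.0988) and passed it in a fit of these 6 alone (limma adjusted p = 0.0184). Pou5f1, the core pluripotency factor Oct4, measured 601, 628 and 602 FPKM in wild-type ESC and 613, 662 and 636 in Sirt1KO Otx2KD. Its groups overlapped, with a difference of 0.060 ± 0.032 (limma adjusted p = 0.125).

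**Figure D1:**
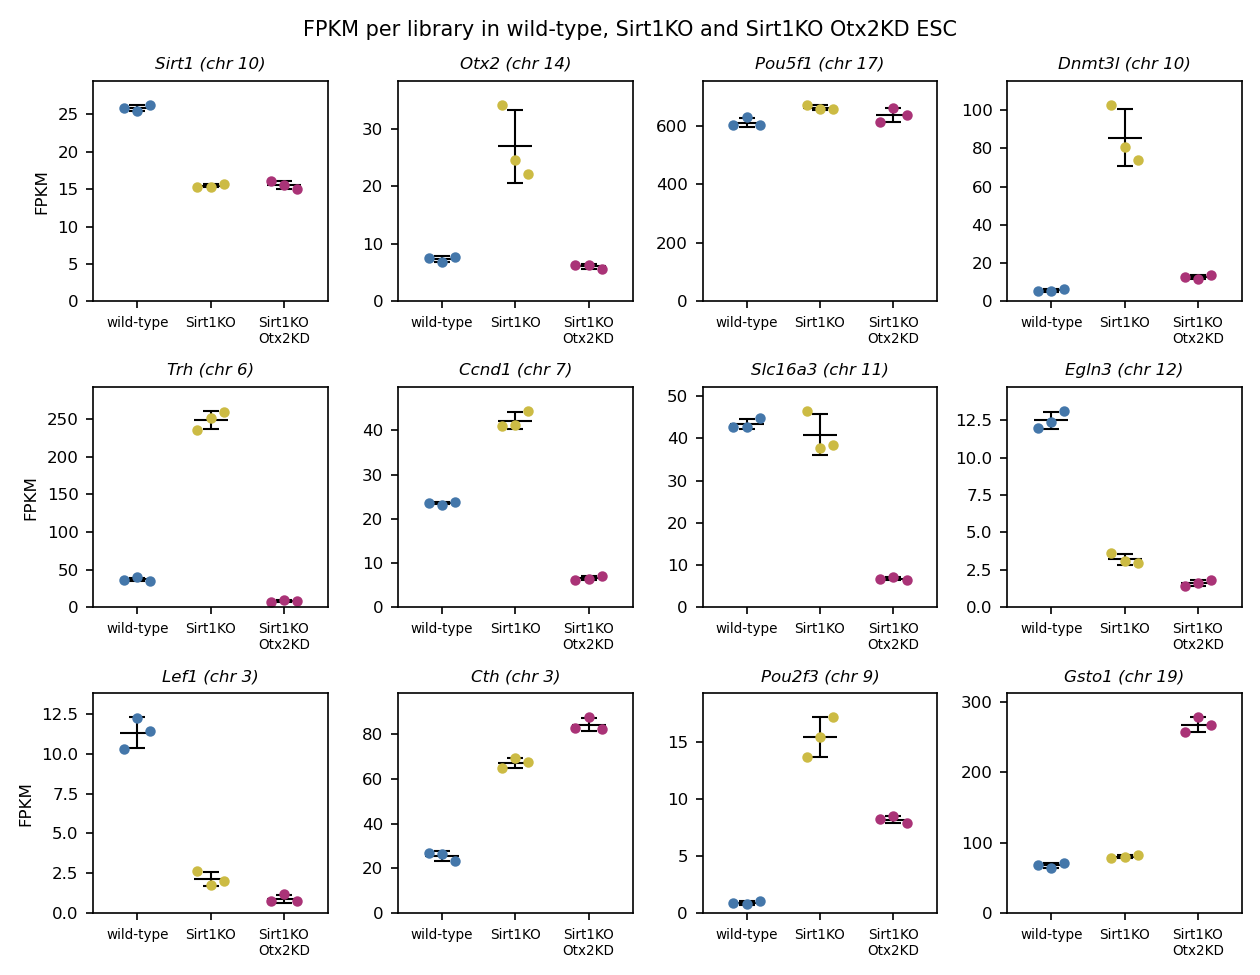
FPKM of 12 genes in each library (y axis, linear from 0) for wild-type, Sirt1KO and Sirt1KO Otx2KD ESC, with points for libraries and bars for mean ± SD (n = 3). Sirt1 stayed low in both knockout groups, Otx2 lay near the wild-type level in Sirt1KO Otx2KD, and Slc16a3, Ccnd1 and Trh lay below both other groups.

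Of the 11665 loci, 6515 (55.9%) passed the threshold, 3258 (27.9%) higher and 3257 (27.9%) lower in Sirt1KO Otx2KD. Changes of at least 1 log2 unit were fewer, with 183 loci (1.57%) higher and 214 (1.83%) lower. Libraries of the groups did not overlap at 7333 loci (62.9%). A called gene is therefore common in these data, and each list below is read against these shares. For Sirt1KO against wild-type ESC, whose counts are set beside them, 31.6% of the loci were higher and 34.2% lower, and for Sirt1KO Otx2KD against Sirt1KO 63.5% passed.

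**Figure D2:**
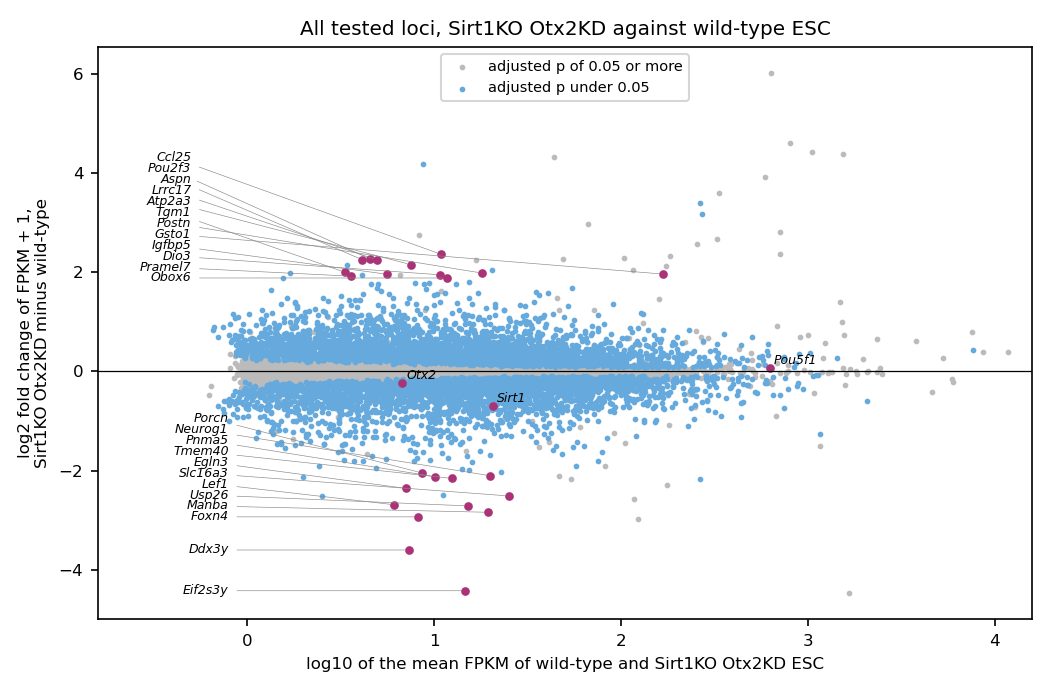
Log2 difference of FPKM + 1, Sirt1KO Otx2KD minus wild-type ESC (y axis), against log10 of the mean FPKM (x axis) for all 11665 tested loci, with the targeted genes and the 12 named genes of largest change in each direction labelled. The labelled genes that fell reach -4.42 at Eif2s3y, those that rose reach 2.36 at Ccl25, and Otx2 and Pou5f1 lie near 0.

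Loci of some chromosomes moved together. On chromosome 8, 475 of 639 loci were higher and 31 lower, with a median of 0.37 log2 units, and on chromosome 11, 64 of 999 were higher and 720 lower, with a median of -0.40. The same medians in Sirt1KO against wild-type ESC were 0.46 and -0.51. Chromosome 6 (median 0.19, 272 higher and 86 lower of 551) and X (median -0.13, 65 higher and 161 lower of 390) moved less, and the other autosomes had medians from -0.047 to 0.042. Without chromosomes 8 and 11, 2719 loci were higher and 2506 lower of 10027, so that 52.1% passed. For named genes on chromosomes 6, 8, 11 and X, the difference left after removing the chromosome's median is given wherever a printed difference moved by over 1.5 times, turned or changed its call, and for some others. Y-linked genes separated the groups too. Eif2s3y measured 30.6, 27.9 and 28.3 FPKM in wild-type ESC against 0.769, 0.247 and 0.235 in Sirt1KO Otx2KD, and Ddx3y 14.6, 14.6 and 13.8 against 0.305, 0.29 and 0.207. These were the largest falls among the named genes (-4.42 ± 0.14 and -3.60 ± 0.082), both genes were at most 0.181 FPKM in Sirt1KO, and Zfy1 was listed at 0 in every library of both knockout groups. In wild-type epiblast-like cells Eif2s3y was at 3.70 to 5.41 FPKM and Ddx3y at 2.46 to 3.06. Both were thus below wild-type ESC there, so these levels also varied within the wild type. The part of these chromosome differences in the other changes was not tested.

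**Figure D3:**
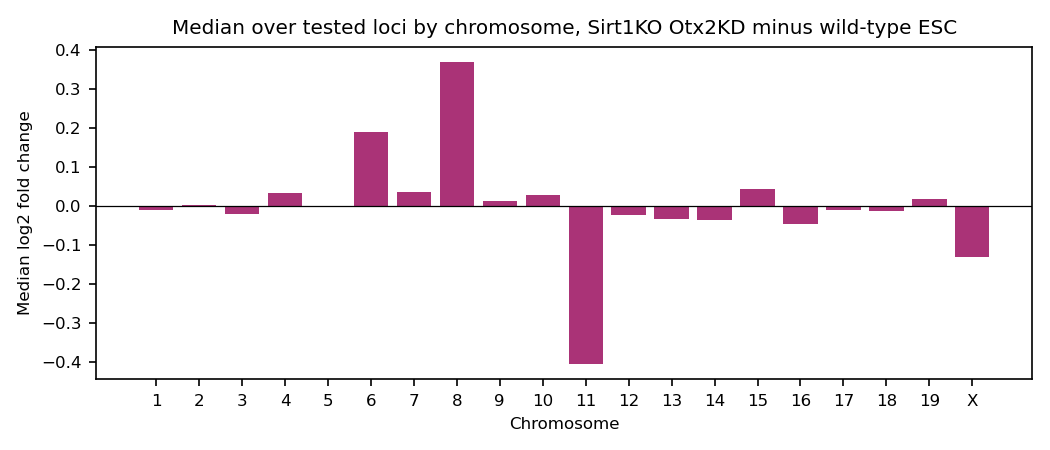
Median log2 difference, Sirt1KO Otx2KD minus wild-type ESC (y axis), over the tested loci of each chromosome (x axis). Chromosome 8 stands at 0.37 and chromosome 11 at -0.40, beside 0.19 for chromosome 6 and -0.13 for X.

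Markers of other cells were measured before the gene groups. Of 14 tested fibroblast and feeder markers, 12 rose and 1 fell (median 0.64). Their summed level was 148.5 to 173.7 FPKM in wild-type ESC, 15.9 to 20.4 in Sirt1KO and 290.6 to 295.1 in Sirt1KO Otx2KD, so the groups did not overlap. None of the 16 listed markers was at 0 in all 6 libraries. Col3a1, a fibrillar collagen, measured 33.6, 36.2 and 39.3 FPKM in wild-type ESC, 2.08, 2.02 and 2.2 in Sirt1KO, against 74.4, 75.4 and 75.9 in Sirt1KO Otx2KD. Every Sirt1KO Otx2KD library was above every wild-type one, by 1.03 ± 0.054, and the difference from Sirt1KO was 4.62. Postn, the matrix protein periostin, rose by 1.98 ± 0.094, Dcn, the proteoglycan decorin, by 1.27 ± 0.13 and Col1a2 by 1.07 ± 0.078. S100a4 fell by 0.51, and Acta2, smooth muscle actin, differed by 0.15 (limma adjusted p = 0.422). The labels name gelatin and no feeder layer. More fibroblasts and more of this RNA per cell cannot be told apart in bulk libraries, and the part of these markers in other changes was not tested. Of 14 primitive endoderm markers 8 stayed under 1 FPKM in all 6 libraries, Gata6, Sox17 and Sox7 among them, and the other 6 rose (median 0.64). The summed level of the list went from 24.7 to 26.5 FPKM in wild-type ESC to between 40.6 and 42.6 in Sirt1KO Otx2KD. Those that rose were Gata4 (at 1.55 to 2.02 FPKM, from 0.366 to 0.503), Dab2, the laminin chains Lama1 and Lamb1, and the collagens Col4a1 and Col4a2 of chromosome 8. Of the 6 libraries, only those of Sirt1KO Otx2KD held Gata4 and Dab2 at 1 FPKM or more. The filter thus admitted both only because they were high there, and the count of 6 and the median include them. Lama1 was as high in Sirt1KO, at 6.25 to 6.91 FPKM beside 6.22 to 6.31 here. With chromosome medians removed Col4a1 and Col4a2 stood at 0.055 and -0.081 and the other 4 passed. Without replicate 2 or 3 of Sirt1KO Otx2KD 5 of the 6 passed with the 11665 loci tested, and 3 when the filter, applied again, left Gata4 and Dab2 untested. Of 6 tested neuroectoderm markers 5 fell, Neurog1, Pax6, Tubb3, Ncam1 and Olig2, and Nes rose. Sox1, which the filter left untested, was at 0.235 to 0.335 FPKM in wild-type ESC and 0.646 to 1.04 in Sirt1KO Otx2KD. Tubb3, on chromosome 8, fell by 0.44 (-0.81 with chromosome medians removed). Among 5 tested trophoblast markers Tfap2c and Eomes fell, among 3 tested mesendoderm markers Eomes and Wnt3 fell, and no tested member of either list rose. Of the 12 markers listed for each, 7 of trophoblast and 9 of mesendoderm stayed under 1 FPKM in all 6 libraries. Of these untested trophoblast markers, Gata3 was higher in Sirt1KO Otx2KD (0.674 to 0.941 FPKM, from 0.0656 to 0.194). Cdx2 was lower (0 to 0.0472, from 0.15 to 0.206). Without any 1 wild-type library the filter, applied again, left Eomes untested and 1 member of each list fell, and with the 11665 loci tested both counts stayed at 2. With chromosome medians removed Wnt3 no longer passed, while the trophoblast markers Esx1 (0.37) and Ascl2 (-0.32, limma adjusted p = 0.0433) did. Esx1 also passed without replicate 2 of wild-type ESC, and Ascl2 without replicate 3 of Sirt1KO Otx2KD.

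The embryonic stem cell markers were present at high levels in both groups. Of the 9 tested, 3 rose, 3 fell and 3 did not pass. Sox2, the partner of Oct4, went from 243, 272 and 274 FPKM in wild-type ESC to 221, 217 and 220.4, a fall of 0.26 log2 units, and Fbxo15, a pluripotency-associated F-box gene, from 163, 160.1 and 157 to 209, 210.1 and 215, a rise of 0.40. Sall4, a zinc finger factor of ESC, rose by 0.24. In the core pluripotency list 4 of 14 members rose and 4 fell (median 0.081), with Tdgf1, the Nodal co-receptor Cripto, falling from 178 to 193 to 107 to 116 FPKM (-0.74).

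Naive pluripotency genes went both ways. Of 22 members 8 rose and 5 fell, with a median of -0.0049, whereas in Sirt1KO 5 were higher and 15 lower (median -0.39). In the fit of 6 libraries 8 fell, and with chromosome medians removed 9 fell, among them Zfp42 (Rex1) of chromosome 8, which rose in the fit of 12 libraries. Dppa3, also called Stella, measured 239.5, 229 and 227 FPKM in wild-type ESC and 213, 219 and 216 in Sirt1KO Otx2KD, -0.10 from wild type (limma adjusted p = 0.0596) against -1.63 in Sirt1KO. Its difference passed in the fit of 6 libraries (limma adjusted p = 0.0169) and with the median of chromosome 6 removed (-0.29, limma adjusted p = 7.86e-05). Prdm14, which represses the exit from the naive state, and Nr0b1 differed by 0.013 and -0.13 without passing (Nr0b1 passed in the fit of 6 libraries and was -0.0038 with the median of chromosome X removed), against -0.72 and -0.96 in Sirt1KO. These 3 genes were picked after their values were seen. Some members still differed. Tet2, which oxidises 5-methylcytosine, measured 35, 32 and 33.5 FPKM in wild-type ESC and 42, 42.3 and 43.2 in Sirt1KO Otx2KD, above wild type (0.33) where Sirt1KO lay below it (-0.65). Fgf4, the ESC growth factor, moved in the same way (0.31 and -0.28). Klf5, a Kruppel-like factor of naive cells, measured 43.4, 45.7 and 44 FPKM in wild-type ESC, 31.7, 31.9 and 31.8 in Sirt1KO, and with the knockdown 30.8, 32.8 and 30.9. The knockout groups overlapped, with a 95% interval of their difference of -0.10 to 0.077, and both lay below wild type (-0.48 here). Pecam1, a surface adhesion molecule on chromosome 11, fell by 0.85 (-0.45 with chromosome medians removed).

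Primed and formative genes were mixed, with 8 of 24 higher and 11 lower (median -0.085), where Sirt1KO had 14 higher and 9 lower (median 0.61). Dnmt3l, the catalytically inactive partner of the de novo DNA methyltransferases, measured 5.53, 5.19 and 6.31 FPKM in wild-type ESC, 103, 80.7 and 73.7 in Sirt1KO, then 12.6, 11.6 and 13.8 in Sirt1KO Otx2KD. It stayed above wild type by 1.03 ± 0.11 after a drop from Sirt1KO of -2.66, with no overlap between any of the groups. Dnmt3b, a de novo methyltransferase, and Pou3f1, the POU factor of the formative state, also stayed higher, by 0.48 and 0.49. Dnmt3a (0.28, limma adjusted p = 0.090) and Lin28a (0.078, limma adjusted p = 0.374) did not pass, and were 1.89 and 2.1 in Sirt1KO. Dnmt3a passed in the fit of 6 libraries (limma adjusted p = 0.0126). Trh, which encodes thyrotropin-releasing hormone, went past the wild-type level. It measured 36.7, 39.7 and 35.3 FPKM in wild-type ESC, 235, 251 and 259 in Sirt1KO, against 7.66, 9.84 and 7.86 in Sirt1KO Otx2KD, a fall against wild type of 2.02 ± 0.074 (limma adjusted p = 3.07e-10). Zic2, a zinc finger factor, and Igfbp2, which binds insulin-like growth factors, fell by 0.99 and 0.61 and were -1.21 and -1.07 in Sirt1KO.

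**Figure D4:**
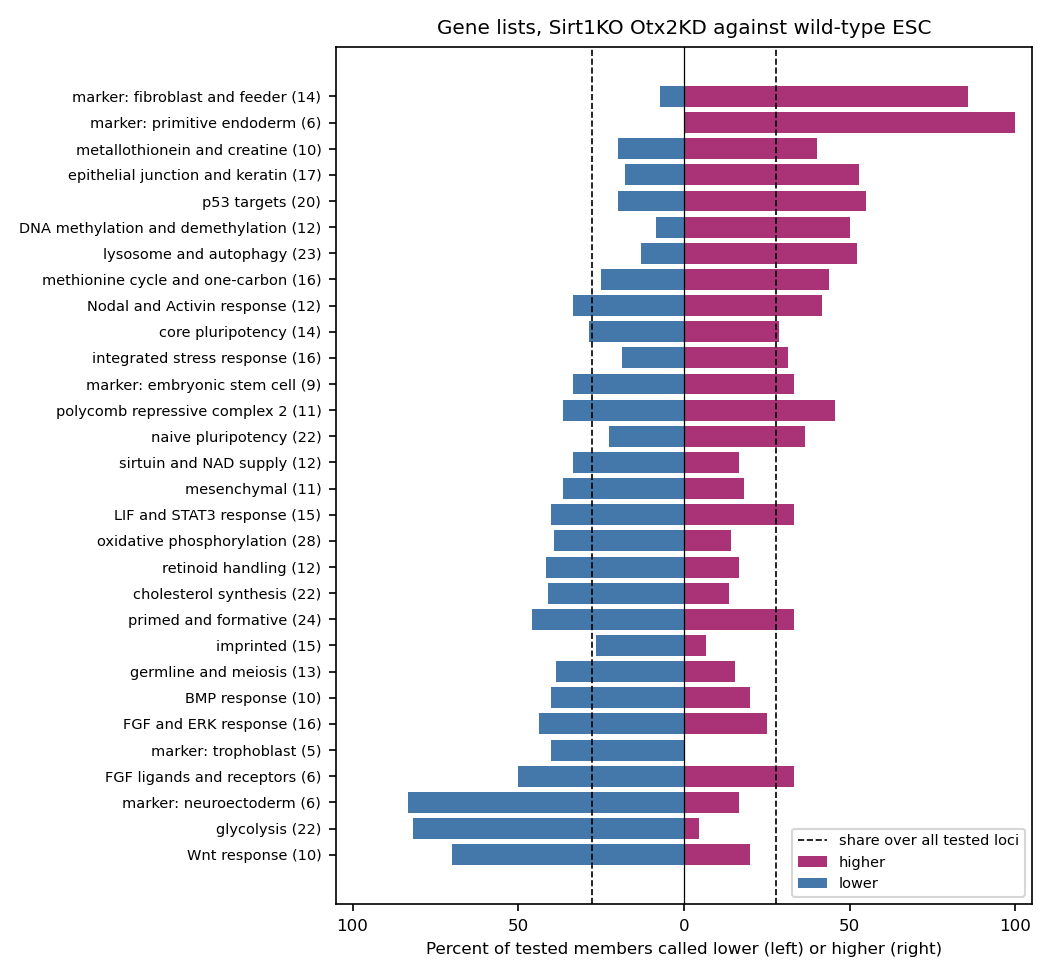
Percent of the tested members of each list that were called higher (right) or lower (left) in Sirt1KO Otx2KD against wild-type ESC. Lists with at least 5 tested members are drawn, ordered by the median difference, with the number tested in brackets. Dashed lines mark the 27.9% of all loci called in each direction. Glycolysis (18 of 22 lower), Wnt response (7 of 10) and neuroectoderm markers (5 of 6) extend well left of the line. Fibroblast and feeder markers (12 of 14 higher) and primitive endoderm markers (6 of 6) extend well right.

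Genes that respond to FGF through ERK were divided. Of 16 tested, 4 rose and 7 fell (median -0.27), against 10 higher and 4 lower in Sirt1KO (median 0.48). The 4 that rose were Spry2, Dusp4, Etv4 and Il17rd, a count of 4 without any 1 library with the 11665 loci tested, and of 2 without a Sirt1KO Otx2KD library when the filter, applied again, left Dusp4 and Etv4 untested. Ccnd1, the cyclin D1 gene through which ERK drives the cell cycle, measured 23.6, 23.2 and 23.8 FPKM in wild-type ESC, 41, 41.2 and 44.4 in Sirt1KO, and with the knockdown 6.26, 6.42 and 7.04. The Sirt1KO Otx2KD libraries lay below all others, at -1.70 ± 0.048 against wild type (limma adjusted p = 2.23e-11) and -2.51 against Sirt1KO. Egr1 and Fos, immediate early genes that are transcribed within minutes of ERK activity, both fell. Egr1 went from 60.5, 69.8 and 64.9 FPKM in wild-type ESC to 19, 23.8 and 20.7 (-1.58 ± 0.11), with -0.039 in Sirt1KO. Fos went from 35.3, 39 and 36.5 to 13, 15.9 and 14.2 (-1.31 ± 0.097), with 0.32 in Sirt1KO. Dusp6, a phosphatase of ERK, measured 4.99, 4.48 and 5.4 FPKM in wild-type ESC and 3.57, 4.27 and 3.57 in Sirt1KO Otx2KD. It did not pass in the fit of 12 libraries (-0.31, limma adjusted p = 0.0865) and passed in the fit of 6 (limma adjusted p = 0.0170). Dusp4 (chromosome 8) and Etv4 (chromosome 11) stayed above wild type by 1.37 and 1.07, at 2.72 to 3.27 and 1.26 to 1.69 FPKM. Of the 6 libraries, only those of Sirt1KO Otx2KD held Dusp4 and Etv4 at 1 FPKM or more, so the filter admitted both through that group. Spred2, an inhibitor of the pathway on chromosome 11, fell by 0.87 (-0.47 with chromosome medians removed). Among ligands and receptors, Fgfr1 on chromosome 8 rose from 18.3 to 20.7 to 38.9 to 42.2 FPKM (1.01, or 0.64 with chromosome medians removed), while the ligands Fgf17 and Fgf3 fell by 0.68 and 0.61.

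Wnt response genes were lower in 7 of 10 tested members (median -0.89), with 2 higher. Of the 7, Axin2, Tcf7, Znrf3 and Notum lie on chromosome 11, and 6 fell with chromosome medians removed, where Znrf3 stood at 0.059. Lef1, the factor that binds beta-catenin at Wnt targets, measured 10.3, 12.2 and 11.4 FPKM in wild-type ESC, 2.65, 1.75 and 2.05 in Sirt1KO, then 0.764, 1.19 and 0.787 in Sirt1KO Otx2KD. It was lower in both knockout groups without overlap and fell by 2.69 ± 0.11 against wild type (limma adjusted p = 3.07e-10). Notum, a secreted Wnt deacylase and feedback inhibitor on chromosome 11, went from 79.5 to 84.6 to 26.1 to 31.2 FPKM (-1.52, or -1.12 with chromosome medians removed). Axin2, the feedback scaffold on chromosome 11, and Sp5, a direct Wnt target, fell by 1.08 (-0.67 with chromosome medians removed) and 1.49. The pair that rose were Tcf7l1 and Tcf7l2, which encode the other DNA-binding partners of beta-catenin. Tcf7l1, the repressor of this family in ESC, measured 16.3, 20.6 and 18.7 FPKM in wild-type ESC and 50.2, 52.8 and 47.7 in Sirt1KO Otx2KD, 1.40 ± 0.076 higher (1.21 with chromosome medians removed), beside 0.24 in Sirt1KO. Porcn, the acyltransferase that Wnt ligands need for secretion, fell from 14.8, 14.2 and 14.1 FPKM to 2.63, 2.25 and 3.37 (-2.05), and was at 0.822 to 0.852 in Sirt1KO.

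In the Nodal and Activin list 5 of 12 members rose and 4 fell (median 0.098). Those that fell were the feedback inhibitors Lefty1 and Lefty2, the co-receptor Tdgf1 and the Smad repressor Skil. Lefty1 measured 27.4, 24.7 and 25.1 FPKM in wild-type ESC, 34.2, 39.2 and 39.1 in Sirt1KO, against 12.6, 11.8 and 12.6 in Sirt1KO Otx2KD. It lay on opposite sides of wild type in the knockout groups, at 0.52 in Sirt1KO and -1.0 ± 0.060 with the knockdown. Skil differed by -1.03 here and by -1.05 in Sirt1KO, with a 95% interval of -0.090 to 0.13 between the knockout groups. Pcsk6, a protease that matures Nodal, rose from 23.5 to 23.9 to 47.6 to 50.3 FPKM (1.01), and Nodal itself, Foxh1, Acvr1b and Furin rose by 0.45, 0.33, 0.55 and 0.45. In the BMP list 2 of 10 rose and 4 fell (median -0.20), the latter Bmp4, Id3, Id4 and Smad6, a count of 2 without replicate 1 or 3 of Sirt1KO Otx2KD or replicate 2 of wild-type ESC. Without the last it was 1 when the filter, applied again, left Bmp4 untested. Id3, a direct BMP target, fell by 0.75 and its relative Id2 rose by 0.54. Bambi, a decoy receptor, rose by 0.37, although its libraries overlapped and it missed the threshold without replicate 2 of Sirt1KO Otx2KD (limma adjusted p = 0.0662). Of 15 genes that answer LIF through STAT3, 5 rose and 6 fell (median -0.024). Stat3 itself, on chromosome 11, rose by 0.21 (0.61 with chromosome medians removed), while its feedback inhibitor Socs3 on chromosome 11 fell by 0.63 (-0.23 with chromosome medians removed) and the receptor chain Il6st fell from 24.6 to 26.8 to 18.3 to 20.1 FPKM.

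Glycolysis was the list with the largest share of members lower among lists of at least 10 tested. Of 22 tested members 18 fell and 1, the hexokinase Hk1, rose (0.30), with a median of -0.46, and 17 fell with chromosome medians removed. In Sirt1KO 8 were higher and 6 lower (median 0.037). The glucose transporter gene Slc2a1 measured 185, 177 and 174 FPKM in wild-type ESC and 87.1, 92.7 and 84.3 in Sirt1KO Otx2KD. It fell by 1.01 ± 0.054 and stood at 0.079 in Sirt1KO. Of the phosphofructokinase subunits, Pfkl went from 43.5 to 49 to 20.4 to 21.6 FPKM (-1.07) and Pfkp from 73.6 to 76.8 to 33.4 to 36.6 (-1.06), and the aldolases Aldoc and Aldoa fell by 1.40 and 0.49. Pdk1, the kinase that shuts pyruvate out of the mitochondrial cycle, fell by 0.64 where it was 1.49 in Sirt1KO. Slc16a3, the lactate exporter MCT4 on chromosome 11, measured 42.6, 42.7 and 44.8 FPKM in wild-type ESC, 46.4, 37.8 and 38.3 in Sirt1KO, and with the knockdown 6.73, 7.08 and 6.55. Sirt1KO overlapped wild type, and the Sirt1KO Otx2KD libraries lay far below both, at -2.51 ± 0.071 (limma adjusted p = 2.23e-11), or -2.11 with chromosome medians removed. The genes that did not pass were Gapdh, Pgam1 and Eno2. Gapdh was listed at 1.7 to 2.59 FPKM in wild-type ESC. Values of Gapdh and other glycolysis genes with processed copies in the mouse genome are uncertain, since the authors' counting could split their reads. Egln3, an oxygen-sensing prolyl hydroxylase that is also a known target of hypoxia-inducible factor, measured 12, 12.4 and 13.1 FPKM in wild-type ESC, 3.62, 3.08 and 2.93 in Sirt1KO, then 1.43, 1.62 and 1.85 in Sirt1KO Otx2KD, and fell by 2.36 ± 0.078.

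**Figure D5:**
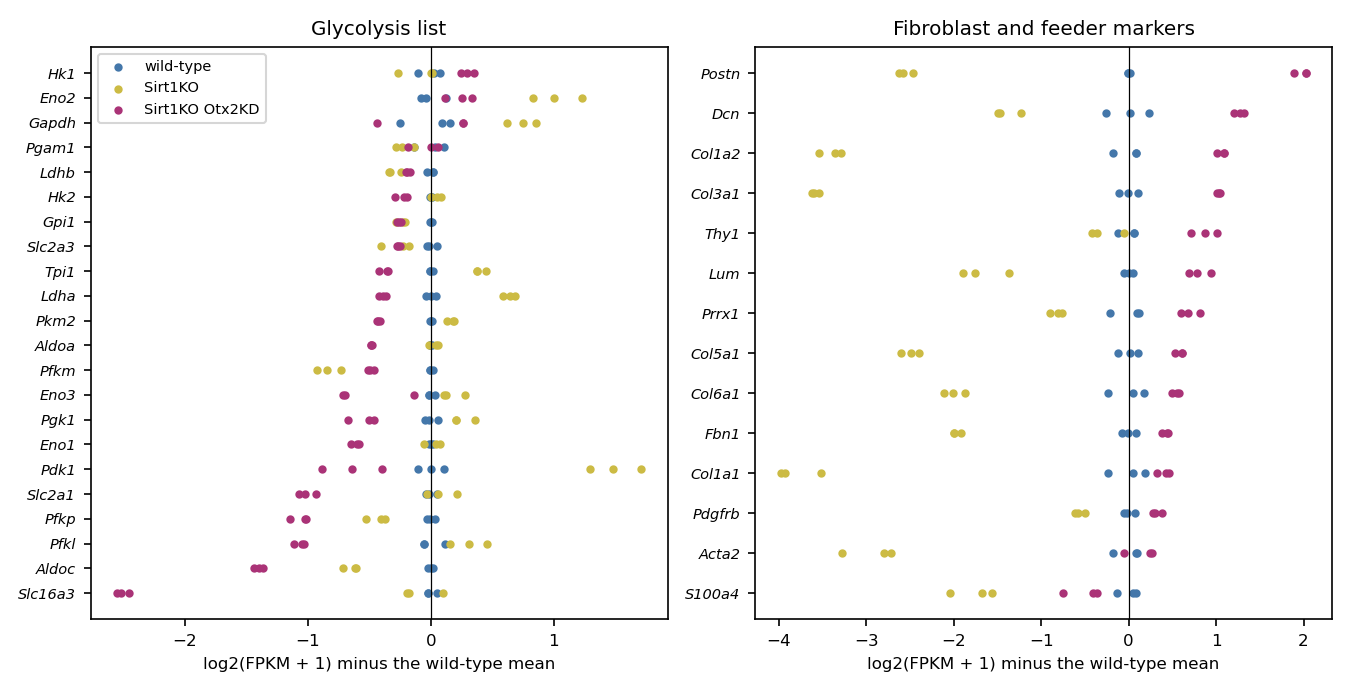
Log2(FPKM + 1) of each library minus the wild-type mean (x axis) for the tested glycolysis genes (left) and fibroblast and feeder markers (right), with 1 point per library and genes ordered by the Sirt1KO Otx2KD difference. Slc16a3 is lowest on the left (-2.51), and on the right Sirt1KO lies below wild type while 12 of 14 markers rose in Sirt1KO Otx2KD.

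Hypoxia-inducible factor is known to bind at the letters ACGTG, the core of the hypoxia response element. The promoters of Slc16a3 and Aldoc, the glycolysis genes that fell most, and of Egln3, which is not in that list, are shown as examples chosen by hand. They come from RefSeq on GRCm38.p6, from 250 bases before to 50 after the start, in the direction of the gene, with ACGTG or its reverse complement CACGT in capitals. Their places are chr11:120948817-120949116 on the plus strand for Slc16a3, chr11:78322823-78323122 on the plus strand for Aldoc and chr12:54203825-54204124 on the minus strand for Egln3. Aldoc has 2 entries, and the 1 shown was chosen because it holds a match, which the other does not.
Slc16a3: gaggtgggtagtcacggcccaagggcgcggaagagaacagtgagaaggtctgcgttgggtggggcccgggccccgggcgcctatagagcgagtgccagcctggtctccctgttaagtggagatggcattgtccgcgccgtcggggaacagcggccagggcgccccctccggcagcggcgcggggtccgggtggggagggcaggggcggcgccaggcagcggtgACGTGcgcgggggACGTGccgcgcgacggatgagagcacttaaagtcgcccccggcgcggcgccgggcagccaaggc
Aldoc: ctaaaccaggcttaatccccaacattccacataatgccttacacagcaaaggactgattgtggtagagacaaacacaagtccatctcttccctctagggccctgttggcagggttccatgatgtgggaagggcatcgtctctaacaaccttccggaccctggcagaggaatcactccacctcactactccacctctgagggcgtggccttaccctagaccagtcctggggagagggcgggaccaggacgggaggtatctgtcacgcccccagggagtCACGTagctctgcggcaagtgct
Egln3: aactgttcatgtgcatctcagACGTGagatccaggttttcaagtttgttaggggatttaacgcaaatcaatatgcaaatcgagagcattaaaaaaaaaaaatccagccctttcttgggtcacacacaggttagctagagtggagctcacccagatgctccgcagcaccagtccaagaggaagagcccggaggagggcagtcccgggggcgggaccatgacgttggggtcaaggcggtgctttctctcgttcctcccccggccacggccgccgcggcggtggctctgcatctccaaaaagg
The Slc16a3 window holds 2 matches and the Aldoc and Egln3 windows 1 each. Over the list, 13 of 31 promoters (41.9%) held a match on either strand, beside 2692 of 10374 (25.9%) for all tested genes and 6447 of 32851 (19.6%) of all promoters in the table. By gene, 11 of the 20 list members with an entry held a match, beside 2443 of 8088 tested genes with an entry. The share was not compared between members that fell and those that did not. CACGTG holds both orientations. A match is a string of letters and was not tested as a bound site.

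Cholesterol synthesis had 3 of 22 members higher and 9 lower (median -0.074), or 6 higher under quantile normalization, where Sirt1KO had 17 higher and 2 lower (median 0.51). Stard4, a cholesterol carrier, measured 13.5, 11.8 and 12.1 FPKM in wild-type ESC, 22.1, 23.2 and 22.8 in Sirt1KO, against 8.0, 8.08 and 8.71 in Sirt1KO Otx2KD. It passed from above wild type in Sirt1KO to below it with the knockdown (-0.54), with no overlap. Insig1, which holds the SREBP factors in the endoplasmic reticulum, fell by 0.77. Ebp, a sterol isomerase on chromosome X, was at 17 to 19.9 FPKM, overlapping Sirt1KO at 18.5 to 23.5, and fell by 1.42. Sc4mol, a sterol oxidase on chromosome 8, rose by 0.32, a direction that turned to -0.052 with chromosome medians removed. Oxidative phosphorylation had 4 of 28 subunit genes higher and 11 lower (median -0.034), with the complex I subunit Ndufv1 lower by 0.49 and the cytochrome oxidase subunit Cox5a higher by 0.42. Cox4i1 on chromosome 8 rose by 0.26 and turned to -0.11 with chromosome medians removed.

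Cth, the enzyme that makes cysteine from cystathionine, kept its difference. It measured 26.9, 26.6 and 23.2 FPKM in wild-type ESC, 64.7, 69.1 and 67.5 in Sirt1KO, and with the knockdown 82.6, 87.6 and 82.2, 1.68 ± 0.055 above wild type (limma adjusted p = 4.69e-11) and 0.32 above Sirt1KO. In the methionine and one-carbon list 7 of 16 members rose and 4 fell (median 0.12). The S-adenosylmethionine synthase gene Mat2a, on chromosome 6, rose from 93.5 to 96.4 to 127 to 133 FPKM (0.45, or 0.26 with chromosome medians removed) while Mat2b, its regulatory subunit on chromosome 11, fell by 0.81 (-0.40 with chromosome medians removed). Tdh, the threonine dehydrogenase on which mouse ESC depend, fell from 380.5 to 388 to 272 to 281 FPKM (-0.48), beside -0.44 in Sirt1KO. Of 16 integrated stress response genes 5 rose and 3 fell (median 0.066), with the asparagine synthetase gene Asns on chromosome 6 lower by 0.31 (-0.50 with chromosome medians removed) and Nupr1 higher by 0.51.

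Genes around p53, a protein that Sirt1 deacetylates, went both ways. Of 20 tested 11 rose and 4 fell (median 0.25), or 9 and 2 with chromosome medians removed, beside 8 and 10 in Sirt1KO. Phlda3, a p53 target that inhibits Akt, measured 35.3, 36.9 and 39.1 FPKM in wild-type ESC, 54.5, 49 and 46.9 in Sirt1KO, then 70.9, 71.6 and 72.3 in Sirt1KO Otx2KD, a rise of 0.93 ± 0.075. The polo-like kinase Plk2, the apoptosis gene Ei24 and the cell cycle inhibitor Cdkn1a rose by 0.78, 0.48 and 0.37. Trp53 itself, on chromosome 11, fell from 258 to 276 to 199 to 206 FPKM (-0.39), and with chromosome medians removed its difference was 0.010. Of 12 tested members of the sirtuin and NAD list 2 rose, Nmnat1 and Nmnat2, and 4 fell, Sirt1 and 3 others. Over all loci 27.9% were called in each direction, so the list lay near that share. With any 1 library of Sirt1KO Otx2KD left out, or replicate 1 or 3 of wild-type ESC, 1 member rose. The 3 were the mitochondrial sirtuins Sirt3 and Sirt5 (-0.48 and -0.49) and Nampt, the rate-limiting enzyme of NAD salvage (60 to 61.3 to 51.7 to 52.8 FPKM, -0.20). Sirt5 narrowly missed the threshold without replicate 2 or 3 of Sirt1KO Otx2KD or replicate 2 of wild-type ESC.

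Chromatin lists were split. DNA methylation and demethylation genes rose in 6 of 12 members and fell in 1, Gadd45a (median 0.16). Besides Dnmt3l, Dnmt3b and Tet2 these were Uhrf1, which recruits Dnmt1 (0.17), Mbd3 of the NuRD complex (0.21) and Zfp57, which protects imprints (0.14). Zfp57 missed the threshold without replicate 2 of Sirt1KO Otx2KD, without replicate 1 of wild-type ESC and with unnamed loci tested as well. Of 11 genes of polycomb repressive complex 2, 5 rose and 4 fell (median 0.011), with 3 rising when chromosome medians were removed. Suz12, a core subunit on chromosome 11, measured 189, 192 and 186 FPKM in wild-type ESC, 69.5, 73.2 and 73 in Sirt1KO, against 119, 114 and 116 in Sirt1KO Otx2KD, -0.69 ± 0.037 from wild type and -0.29 with chromosome medians removed. Its accessory partner Phf19 fell by 0.83. Imprinted genes had 1 of 15 higher, Igf2, and 4 lower, Peg3, Grb10, Phlda2 and Impact. Igf2 missed the threshold without replicate 1 of wild-type ESC, which left no member higher, and Grb10, on chromosome 11, stood at -0.074 with chromosome medians removed. H19 and Igf2, which were -2.59 and -2.74 in Sirt1KO, lay at 0.049 (limma adjusted p = 0.652) and 0.23 from wild type here. Germline genes were lower in 5 of 13 and higher in 2, with the X-linked Usp26 from 28.4, 27.4 and 25.4 FPKM to 3.47, 2.8 and 3.61 (-2.71) and the meiotic gene Hormad1 lower by 1.19.

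The genes that rose most were not of 1 kind. Ccl25, a chemokine gene on chromosome 8, measured 2.52, 2.89 and 3.17 FPKM in wild-type ESC, 10.9, 12 and 16.2 in Sirt1KO, and with the knockdown 21.4, 17.6 and 17.5, a rise of 2.36 ± 0.15 (1.99 with chromosome medians removed). Pou2f3, a POU factor of tuft cells, went from 0.895, 0.778 and 1.09 FPKM to 8.24, 8.5 and 7.87 (2.26), below its Sirt1KO level of 13.7 to 17.2. Tgm1, a transglutaminase, showed the same order (2.00 here, 3.22 in Sirt1KO). Another set stood above both other ESC groups. Gsto1, a glutathione transferase of the omega class, measured 68.2, 64.6 and 70.8 FPKM in wild-type ESC, 78.2, 79.3 and 82.4 in Sirt1KO, then 256, 278 and 266 in Sirt1KO Otx2KD, 1.96 ± 0.050 above wild type. Obox6, an oocyte-specific homeobox gene, rose by 1.88 and differed from Sirt1KO by 1.78, and Pramel7, a preimplantation gene that promotes the ground state, from 0.537 to 1.15 to 5.87 to 6.76 (1.92). Aspn, the matrix protein asporin, rose from 0.69 to 0.893 to 7.06 to 8.1 FPKM (2.25) and Lrrc17 from 0.896 to 1.18 to 8.22 to 10.1 (2.24), at 0.040 to 0.177 and 0.0417 to 0.129 in Sirt1KO, the same order of groups as the fibroblast markers. Igfbp5, which binds insulin-like growth factors, rose by 1.96 and Dio3, an imprinted deiodinase gene, by 1.94.

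Among the genes that fell most, Manba, the lysosomal beta-mannosidase, measured 34.3, 36.6 and 34 FPKM in wild-type ESC, 17.3, 17.2 and 17.3 in Sirt1KO, against 3.96, 3.86 and 4.23 in Sirt1KO Otx2KD. It stepped down from group to group without overlap and fell by 2.84 ± 0.048 (limma adjusted p = 1.04e-13). Tmem40 and the X-linked Pnma5 fell by 2.16 and 2.12. Neurog1, a proneural factor, went from 34.3, 34.1 and 30.8 FPKM to 5.76, 7.58 and 7.53 (-2.1), and was at 0.758 to 1.23 in Sirt1KO.

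The named genes can be ordered by what happened between Sirt1KO and Sirt1KO Otx2KD. Of the 269 genes that changed by at least 1 log2 unit against wild type and met the naming conditions, the 6 that came furthest toward wild type were Dnmt3l, Neurog1, Cpe, Mt4, Sox21 and Krt18. Cpe, carboxypeptidase E on chromosome 8, measured 1.36, 2.49 and 1.75 FPKM in wild-type ESC, 19.8, 23.2 and 19.8 in Sirt1KO, and with the knockdown 4.54, 5.86 and 5.63. It kept a difference of 1.16 of the 2.95 in Sirt1KO. Sox21, a SoxB2 factor, stayed at -1.0 where Sirt1KO was -2.55. The 6 with the largest step from Sirt1KO in the direction of their difference from wild type were Trh, Postn, Col3a1, Col1a2, Ly6a and Loxl2. All 6 crossed the wild-type level in that step, so this is not an order by distance from wild type. Trh fell and the other 5 rose, of which Loxl2, a lysyl oxidase that crosslinks collagen, measured 8.98, 10.1 and 9.88 FPKM in wild-type ESC, 0.967, 0.764 and 0.806 in Sirt1KO, then 22.8, 22.1 and 21.6 in Sirt1KO Otx2KD. Each of these 5 was below wild type in Sirt1KO and above it here.

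Of the same 269 genes, which changed by at least 1 log2 unit against wild type and met the naming conditions, 63 stayed near their Sirt1KO level. For these the 95% interval of Sirt1KO Otx2KD minus Sirt1KO lay within 0.5 log2 units of 0. The 8 of largest change were Ddx3y, Foxn4, Atp2a3, Ccdc136, Glod5, Pde1b, Cth and Acot1. Foxn4, a forkhead factor, measured 14.3, 15.6 and 15.9 FPKM in wild-type ESC, 0.955, 0.867 and 0.925 in Sirt1KO, against 1.22, 0.978 and 1.19 in Sirt1KO Otx2KD. It was -2.93 ± 0.091 from wild type, and its difference from Sirt1KO had an interval of -0.043 to 0.35. Atp2a3, the calcium pump SERCA3 on chromosome 11, went the other way, from 1.91, 2.27 and 2.23 FPKM in wild-type ESC to 13.9, 14.9 and 15.5 in Sirt1KO, and with the knockdown 12.4, 12.9 and 13.4. It rose by 2.15 ± 0.070 against a chromosome whose median fell (2.55 with chromosome medians removed). Pde1b, a cyclic nucleotide phosphodiesterase, rose by 1.69, with an interval against Sirt1KO of -0.055 to 0.31. Acot1, an acyl-CoA thioesterase, fell by 1.63, with an interval of -0.31 to 0.027. Glod5, which is X-linked, and Ccdc136 differed by -1.74 and -1.79. Ddx3y is given above with the Y-linked genes.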

How the data were processed

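Polyadenylated RNA was sequenced from 12 libraries in 4 groups of 3, assigned by their titles. The deposited files hold the authors' FPKM per locus, and per the submitters' processing notes TopHat, Cufflinks, Cuffdiff and mm9 were used, with no versions. How library sizes were set is not given in the sources used here. Of 27914 loci, 4778 have no name, hold 95.4% to 96.5% of the FPKM sum of the 6 libraries compared, and were left out of the tests. Of the 11665 tested loci, 190 have merged names and 138 share a symbol.

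Values were log2(FPKM + 1), fitted with a mean per group to all 12 libraries in limma 3.58.1 (empirical Bayes, trend and robust, R 4.3.3). Relative depth is the most frequent ratio between libraries of FPKM values under 0.1. No library files were identical. On simulated data with 11665 genes, 50 genes were changed by each of 0.25, 0.5, 1 and 2 log2 units. The fit called 32%, 80%, 94% and 98% of these for this comparison, and 1.94% of its calls were false. The data differ, with 55.9% of loci called and chromosome shifts that the simulation lacked, so these rates may not hold for them.

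The text names Sirt1, Otx2 and Pou5f1, and up to 4 members of each of 32 lists by t. It names the 12 of largest change each way among called genes with libraries that do not overlap and at least 5 FPKM in the higher group. Among such genes changed by at least 1 log2 unit, it names the 6 that moved most toward wild type between Sirt1KO and Sirt1KO Otx2KD. A further 6 had the largest step in the direction of their difference from wild type, and 8 stayed far from wild type in both groups. Predicted genes, Rik and clone names, pseudogenes, small RNA genes and merged or shared symbols were not named among these. Some genes that this rule selects are not reported here. Other list members were named after their values were seen. The comparison, members and lists were chosen with earlier results of these data known. Of 546 list entries 525 matched 1 locus, and the rest, Nanog among them, are not analysed here. No set test was run. The alternatives were a pseudocount of 0.1, no filter or a filter at 5 FPKM, unnamed loci, other scalings, a plain limma fit, a fit of 6 libraries, a replicate block, chromosome medians removed and each library left out. Leaving out a library was also run with the 11665 loci tested, an alternative chosen after the data were seen.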

Additional observations from a re-analysis of the deposited data

How the results depend on the processing

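With every alternative run, the number of loci higher and lower stayed within 1.5 times the values given. Leaving out 1 library gave 2811 to 3051 higher and 2889 to 3059 lower. The count of loci changed by at least 1 log2 unit did move, to 369 higher and 347 lower with a pseudocount of 0.1. That pseudocount shrinks differences at low FPKM less than a pseudocount of 1 does. With unnamed loci tested as well it moved to 361 higher and 366 lower, counted over 15915 loci in place of 11665. The part of low-FPKM or unnamed loci in these counts was not tested. The Otx2 difference was -0.25 in a fit of the 6 libraries, where it passed (limma adjusted p = 0.0184). With chromosome medians removed Trp53 turned to 0.010, Sc4mol to -0.052 and Cox4i1 to -0.11, because that setting subtracts the shift of chromosomes 8 and 11, and Cdh1, Itgb3, Grb10 and Wnt3 no longer passed. Cdh2 did not pass without replicate 2 of Sirt1KO Otx2KD or replicate 1 of wild-type ESC. Pou5f1 passed without replicate 1 of Sirt1KO Otx2KD (0.087, limma adjusted p = 0.0452). Over the 143 genes that the naming rule selects and the alternatives, 3086 values kept their side of the threshold and, for called genes, their direction. Genes that the filter of an alternative left untested add no value there. In this tally 10 lost the threshold, 12 gained it and 3 reversed. List members named after their values were seen, such as Zfp42, Dppa3 and Nr0b1, are not in the tally. Of 1408 counts of list members, 93 moved by over 1.5 times. Leaving out 1 library moved 37 of 384 such counts when the filter of 3 libraries was applied again, which leaves untested those genes that reach 1 FPKM in 1 group only, and 22 of 384 with the 11665 loci tested, a setting added after the data were seen. Library numbers do not pair the samples: same-numbered libraries correlated at -0.069, 0.16 and -0.079 in their deviations from the group means. With the replicate block 3202 loci were higher and 3189 lower, Sirt1 differed by -0.70 and Otx2 did not pass (limma adjusted p = 0.0903). Counts behind the FPKM are unknown, so no counting interval can be given, and low-FPKM genes are the least precise.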

Other observations

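Lysosome and autophagy genes had 12 of 23 members higher and 3 lower (median 0.14), or 5 lower with chromosome medians removed, beside the 27.9% of all loci called in each direction. Several lie on shifted chromosomes. The receptor Sqstm1 on chromosome 11 measured 199.6, 206 and 209 FPKM in wild-type ESC and 104, 103 and 102 in Sirt1KO Otx2KD, a fall of 0.98 (-0.58 with chromosome medians removed), with Sirt1KO at 98.7 to 104. Lamp1 and Map1lc3b on chromosome 8 rose by 0.58 and 0.70 (0.21 and 0.33 with medians removed). The X-linked regulator Tfe3 fell from 47.9 to 52.8 to 24.8 to 26.6 FPKM (-0.96), and was -0.97 in Sirt1KO.

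Epithelial junction and keratin genes had 9 of 17 members higher and 3 lower (median 0.27), where Sirt1KO had 12 and 3 (median 0.68). Without replicate 2 or 3 of wild-type ESC 1 was lower. Cldn6, a claudin of tight junctions, measured 21.4, 24.4 and 26.3 FPKM in wild-type ESC, 79.4, 73.5 and 69.7 in Sirt1KO, then 51.7, 52.4 and 56.4 in Sirt1KO Otx2KD, 1.13 above wild type. Cldn4 and Krt18 rose by 0.87 and 1.07, while Cdh1 on chromosome 8 rose by 0.38 and stood at 0.013 with chromosome medians removed. Among 11 mesenchymal genes 2 rose, Tagln and Zeb1, and 4 fell. None rose without replicate 2 or 3 of Sirt1KO Otx2KD or replicate 2 of wild-type ESC, and 1 without replicate 1 or 3 of wild-type ESC. Of those that fell, Vim, the intermediate filament vimentin, measured 165, 169 and 178 FPKM in wild-type ESC and 62.4, 75 and 68.3 in Sirt1KO Otx2KD (-1.31). Retinoid handling had 2 of 12 members higher, Rxrb and Dhrs3, and 5 lower. Rxrb missed the threshold without replicate 2 or 3 of Sirt1KO Otx2KD or replicate 1 or 3 of wild-type ESC, and without any 1 Sirt1KO Otx2KD library the filter, applied again, left Dhrs3 untested, so that the count was 0 without replicate 2 or 3 of that group. Of those lower, the retinoic acid binding protein gene Crabp1 measured 35.6, 34.1 and 34 FPKM in wild-type ESC against 12.2, 11.7 and 17.7 (-1.28). In the metallothionein and creatine list 4 of 10 rose and 2 fell. With chromosome medians removed 4 fell, Mt1 and Mt2 of chromosome 8 added, and without any 1 wild-type library 1 fell when the filter, applied again, left Gatm untested. Aqp3, a water and glycerol channel, measured 118, 122 and 122 FPKM in wild-type ESC, 26.4, 30.3 and 31.4 in Sirt1KO, against 218, 211 and 216 in Sirt1KO Otx2KD, and Ckb, creatine kinase B, lay above wild type by 0.55 where Sirt1KO was -0.61.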
